A study of Mus musculus with 9 samples.

Results

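The genes described here are 10 markers of the macrophages that live in the red pulp of the spleen: Spic, Vcam1, Adgre1, Csf1r, Hmox1, Slc40a1, Cd163, C1qa, C1qb and C1qc. They were taken by symbol from a table of 46517 genes, and all 10 symbols were found in 1 row each. The table gives bulk RNA-seq levels as FPKM (fragments scaled by the length of the gene and by the size of the library) for 9 libraries of C57BL/6 mice aged over 18 months. There were 2 lymph nodes of plckGAPDH mice (animals 455 and 508), 4 spleens of plckGAPDH mice (animals 343, 508 and 547, and 1 whose column carries no animal number) and 3 spleens of wild-type mice (numbers 1, 4 and 5). The plckGAPDH mouse expresses a Gapdh transgene from the Lck promoter, which drives expression in T cells, and the labels describe the mice of this genotype as developing tumours; the wild-type spleens carry no transgene. RNA was prepared from splenocytes according to the labels, which name no preparation for the lymph nodes. The titles carry the letters MES for lymph node 455 and LN for lymph node 508, and a difference in site between them was not tested. No lymph node of a wild-type mouse was analysed here, so tissue was compared within the plckGAPDH genotype. The labels do not say whether the unnumbered spleen came from a further animal, and the tests measure the spread between these libraries, which may in part be technical.

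Red pulp macrophages clear aged red blood cells from the circulation. They break down haem with haem oxygenase 1 (Hmox1) and return the iron to the plasma through ferroportin (Slc40a1), and the transcription factor Spi-C (Spic) is needed for their development. The C1q genes, Csf1r and Adgre1 are used more widely among tissue macrophages, those of lymph nodes included, and a lymph node has no red pulp. All 10 genes were above 0 FPKM in all 9 libraries, lymph nodes included.

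Depth, estimated from the step between low FPKM values, ran from 23900000 to 34200000 fragments per library. Gapdh, the gene of the transgene, was at 554 and 312 FPKM in lymph nodes 455 and 508, at 430, 505, 890 and 894 FPKM in plckGAPDH spleens 343, 508, 547 and the unnumbered one, and at 299, 348 and 338 FPKM in wild-type spleens 1, 4 and 5. In the deposited FPKM all 4 plckGAPDH spleens thus lay above the 3 wild-type spleens, while lymph node 508 lay within the wild-type range. This order did not hold after median-of-ratios scaling, an alternative scaling of the libraries. Its factors were 1.10 for spleen 343, 0.875 for wild-type spleen 4 and 0.546 for lymph node 508. With each library divided by its factor, spleen 343 fell below wild-type spleen 4, and lymph node 508 rose above all 3 wild-type spleens. The columns summed to between 1028800 and 2667330 FPKM, and the largest sums belonged to lymph node 508 and spleen 508. Wild-type spleen 5 stood apart through its red blood cell transcripts, with the beta-globin transcript Hbb-bs at 33216 FPKM, while the other 8 libraries had 0.17 to 808 FPKM.

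Among the genes of macrophage identity, Spic was at 2.45 and 0.55 FPKM in lymph nodes 455 and 508. It was at 5.35, 1.87, 9.80 and 5.20 FPKM in plckGAPDH spleens 343, 508, 547 and the unnumbered one, and at 5.11, 5.61 and 31.32 FPKM in wild-type spleens 1, 4 and 5. Lymph node 508 held the lowest Spic level of the 9 libraries, and lymph node 455 lay above spleen 508 but below the other 6 spleens. The mean of 1.5 ± 1.3 FPKM in lymph nodes (SD, n = 2) stood against 5.56 ± 3.25 FPKM in plckGAPDH spleens (SD, n = 4) and 14 ± 15 FPKM in wild-type spleens (SD, n = 3). In bulk tissue, fewer cells of a type and less RNA per cell cannot be told apart.

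Vcam1 encodes an adhesion molecule that red pulp macrophages, but also endothelial and stromal cells, carry on their surface. It was at 22.43 and 3.06 FPKM in lymph nodes 455 and 508, at 20.27, 6.75, 17.54 and 13.55 FPKM in plckGAPDH spleens 343, 508, 547 and the unnumbered one, and at 3.14, 7.35 and 66.96 FPKM in wild-type spleens 1, 4 and 5. The groups overlapped, and lymph node 455 was exceeded by wild-type spleen 5 only. Csf1r, the receptor for the macrophage growth factor CSF1, was at 27.91 and 2.79 FPKM in the same lymph nodes, at 12.15, 8.04, 20.97 and 14.07 FPKM in the plckGAPDH spleens and at 9.04, 14.99 and 55.20 FPKM in the wild-type spleens, in the same order. Its 2 lymph nodes thus bracketed all 4 plckGAPDH spleens.

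Adgre1, which encodes the macrophage surface protein F4/80, was at 5.23 and 0.52 FPKM in lymph nodes 455 and 508. It was at 58.72, 0.84, 8.09 and 5.06 FPKM in plckGAPDH spleens 343, 508, 547 and the unnumbered one, and at 25.07, 4.05 and 26.90 FPKM in wild-type spleens 1, 4 and 5. Spleen 343 had the highest level of the 9 libraries and spleen 508 the second lowest, so that the plckGAPDH spleens spanned both sides of the wild-type range. Adgre1 was the highest of the 10 genes in plckGAPDH spleen 343 and in wild-type spleen 1, and C1qa or C1qb was the highest in the other 7 libraries.

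Of the haem and iron genes, Slc40a1 separated the tissues in these libraries. It was at 0.25 and 0.23 FPKM in lymph nodes 455 and 508, against 6.09, 2.03, 11.03 and 3.41 FPKM in plckGAPDH spleens 343, 508, 547 and the unnumbered one. In wild-type spleens 1, 4 and 5 it was at 3.32, 1.0 and 74.68 FPKM. Both lymph nodes lay below all 7 spleens, and the lowest plckGAPDH spleen was still 8.12 times the higher lymph node. At the estimated depth these lymph node values correspond to about 56 and 58 fragments, so ferroportin transcripts were detected there. The mean of 0.240 ± 0.014 FPKM in lymph nodes (SD, n = 2) was 23.5 times lower than the 5.64 ± 3.97 FPKM of plckGAPDH spleens (SD, n = 4). Slc40a1 (chromosome 1, 45908068 to 45926523, minus strand, mm10) also had the widest range of the 10 genes, with a highest level 325 times the lowest.

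Hmox1 was at 24.09 and 14.97 FPKM in lymph nodes 455 and 508, at 21.48, 15.43, 29.62 and 14.22 FPKM in plckGAPDH spleens 343, 508, 547 and the unnumbered one, and at 6.66, 4.74 and 100.82 FPKM in wild-type spleens 1, 4 and 5. Both lymph nodes lay within the range of the plckGAPDH spleens, and wild-type spleens 1 and 4 lay below all 6 of them. Cd163, the scavenger receptor for haemoglobin bound to haptoglobin, was at 0.35 and 0.05 FPKM in lymph nodes 455 and 508, at 0.64, 0.06, 0.18 and 0.24 FPKM in the plckGAPDH spleens and at 0.15, 0.17 and 2.06 FPKM in the wild-type spleens, in the same order. These values correspond to between 8 and 270 fragments. Cd163 reached 1 FPKM in wild-type spleen 5 alone and was therefore left out of the tests.

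C1qa, C1qb and C1qc encode the chains of C1q, which starts the classical complement pathway and is made largely by macrophages. The genes lie side by side on chromosome 4 (mm10, minus strand), C1qb at 136880129 to 136886187, C1qc at 136889804 to 136893065 and C1qa at 136895917 to 136898803. C1qa was at 137.78 and 17.57 FPKM in lymph nodes 455 and 508, at 36.94, 25.54, 44.48 and 32.81 FPKM in plckGAPDH spleens 343, 508, 547 and the unnumbered one, and at 6.12, 66.99 and 111.75 FPKM in wild-type spleens 1, 4 and 5. Lymph node 455 held the highest level of the 9 libraries and wild-type spleen 1 the lowest, so the plckGAPDH spleens lay inside the range of either other group.

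C1qb was at 96.73 and 13.46 FPKM in the lymph nodes, at 34.40, 22.55, 42.38 and 25.57 FPKM in the plckGAPDH spleens and at 5.76, 67.22 and 85 FPKM in the wild-type spleens, in the order just used. C1qc was at 82.33 and 12.67 FPKM in the lymph nodes, at 39.12, 21.11, 41.09 and 26.36 FPKM in the plckGAPDH spleens and at 5.20, 57.23 and 98.16 FPKM in the wild-type spleens. The chains kept close to a common level in every library: C1qa stood at 0.997 to 1.42 times C1qb, and C1qc at 0.851 to 1.15 times C1qb, while each chain varied 16.8-fold to 22.5-fold across libraries.

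Because the C1q genes varied together across the 9 libraries, the promoters of those with a RefSeq entry are shown, C1qb at chr4:136886151-136886450 and C1qc at chr4:136892865-136893164 (GRCm38.p6, minus strand, 250 bases before to 50 after the transcript start). Capitals mark matches, on either strand, to GAGGAA (a core sequence bound by ETS factors such as PU.1, reverse complement TTCCTC) and to TGACNNNGC (the antioxidant response element, reverse complement GCNNNGTCA).
C1qb: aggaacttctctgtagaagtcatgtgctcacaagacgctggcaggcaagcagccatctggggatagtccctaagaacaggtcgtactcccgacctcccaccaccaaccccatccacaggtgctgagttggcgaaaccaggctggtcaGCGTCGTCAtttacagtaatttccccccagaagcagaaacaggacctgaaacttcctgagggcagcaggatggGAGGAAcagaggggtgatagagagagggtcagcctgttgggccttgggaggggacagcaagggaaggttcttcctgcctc
C1qc: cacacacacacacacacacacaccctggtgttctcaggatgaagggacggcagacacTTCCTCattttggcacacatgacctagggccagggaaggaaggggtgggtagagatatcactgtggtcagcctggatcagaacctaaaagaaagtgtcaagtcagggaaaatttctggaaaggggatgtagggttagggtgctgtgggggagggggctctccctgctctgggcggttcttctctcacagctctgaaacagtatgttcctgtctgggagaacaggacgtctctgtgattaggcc
In C1qb, GAGGAA began 30 bases before the start on the strand of the gene, and the antioxidant response element began 103 bases before it on the opposite strand. In C1qc, the ETS core began 193 bases before the start on the opposite strand, and the other motif had no match in this window. Of 32851 mouse promoters of the same length, 28.3% held a match to GAGGAA and 12.4% a match to TGACNNNGC, so a match to either is common. The table of promoters held 4 of the 10 genes; Spic and Cd163 were the others, and neither window held a match to these letters.

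**Figure D1:**
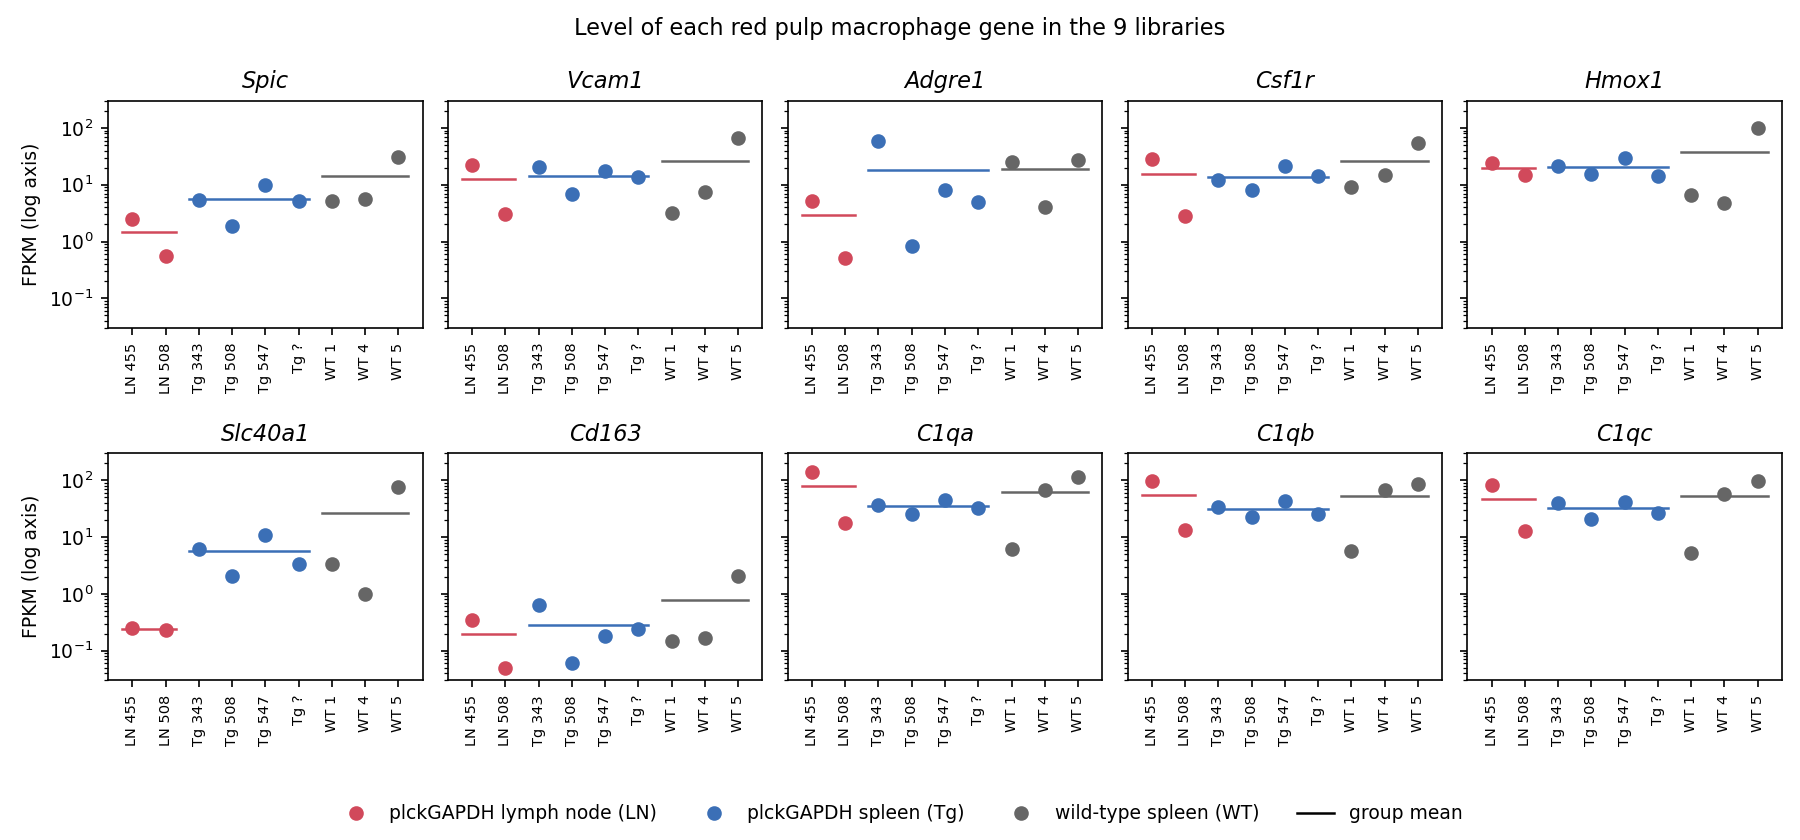
Level of each of the 10 genes in every library, in FPKM on a log axis. Points are libraries (LN, plckGAPDH lymph node; Tg, plckGAPDH spleen; WT, wild-type spleen; the question mark is the unnumbered spleen) and lines are group means. Slc40a1 is the gene whose 2 lymph nodes, at 0.25 and 0.23 FPKM, lie below all 7 spleens, and wild-type spleen 5 holds the highest value of 7 of the 10 genes.

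The spread between libraries of 1 group was wide. Wild-type spleen 5 held the highest value of 7 of the 10 genes, lymph node 455 of C1qa and C1qb, and plckGAPDH spleen 343 of Adgre1. In the deposited FPKM lymph node 508 held the lowest value of 6 genes, wild-type spleen 1 of the 3 C1q genes and wild-type spleen 4 of Hmox1. After median-of-ratios scaling, an alternative scaling of the libraries, lymph node 508 was no longer the lowest for Vcam1, Slc40a1 and Cd163. The summed level of the 10 genes was 400 and 65.9 FPKM in lymph nodes 455 and 508, 235, 104, 225 and 140 FPKM in plckGAPDH spleens 343, 508, 547 and the unnumbered one, and 69.6, 229 and 653 FPKM in wild-type spleens 1, 4 and 5. By this summed level as deposited, the 2 libraries of animal 508 were the lowest of their groups. After median-of-ratios scaling the 3 C1q genes and Hmox1 were higher in spleen 508 than in the unnumbered spleen. The rest of the 10 genes stayed lower. The factors of that scaling were 0.79 for spleen 508 and 1.31 for the unnumbered spleen. With each library divided by its factor, the summed level of spleen 508 lay above that of the unnumbered spleen. Spleen 508 was then no longer the lowest of its group, while lymph node 508 stayed below lymph node 455. Both libraries of animal 508 were rich in the plasma cell gene Jchain, at 1661 FPKM in the lymph node and 3472 FPKM in the spleen. Lymph node 455 had 1886 FPKM of Jchain beside a high summed level of the 10 genes, and the part of plasma cell transcripts in these levels was not tested.

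The make-up of the set within a library does not depend on how libraries are scaled. The C1q genes supplied 79.3% and 66.3% of the summed level in lymph nodes 455 and 508, 47.0%, 66.4%, 56.8% and 60.3% in plckGAPDH spleens 343, 508, 547 and the unnumbered one, and 24.6%, 83.5% and 45.2% in wild-type spleens 1, 4 and 5. Spic stood at 2.32 and 3.78 per 100 of the mean C1q level in the lymph nodes, against 14.5, 8.11, 23.0 and 18.4 in the plckGAPDH spleens and 89.8, 8.79 and 31.9 in the wild-type spleens. On this ratio both lymph nodes lay below all 7 spleens, as did 2.73% of the 13682 genes tested. Slc40a1 stood at 0.237 and 1.58 per 100 of the mean C1q level in the lymph nodes, against 16.5, 8.80, 25.9 and 12.1 in the plckGAPDH spleens and 58.3, 1.57 and 76.0 in the wild-type spleens. Both lymph nodes were thus below every plckGAPDH spleen, while wild-type spleen 4 was as low as lymph node 508. Of the 7 genes outside C1q, Spic, Slc40a1, Vcam1 and Csf1r were lower in both lymph nodes than in all 4 plckGAPDH spleens when set against C1q, as were 10.4% of all genes tested. Vcam1 and Csf1r did not separate the lymph nodes from all 7 spleens. Wild-type spleen 4 had Vcam1 at 11.5 per 100 of C1q, against 21.2 and 21.0 in lymph nodes 455 and 508. Its Csf1r was at 23.5, against 26.4 and 19.2 in the same lymph nodes.

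**Figure D2:**
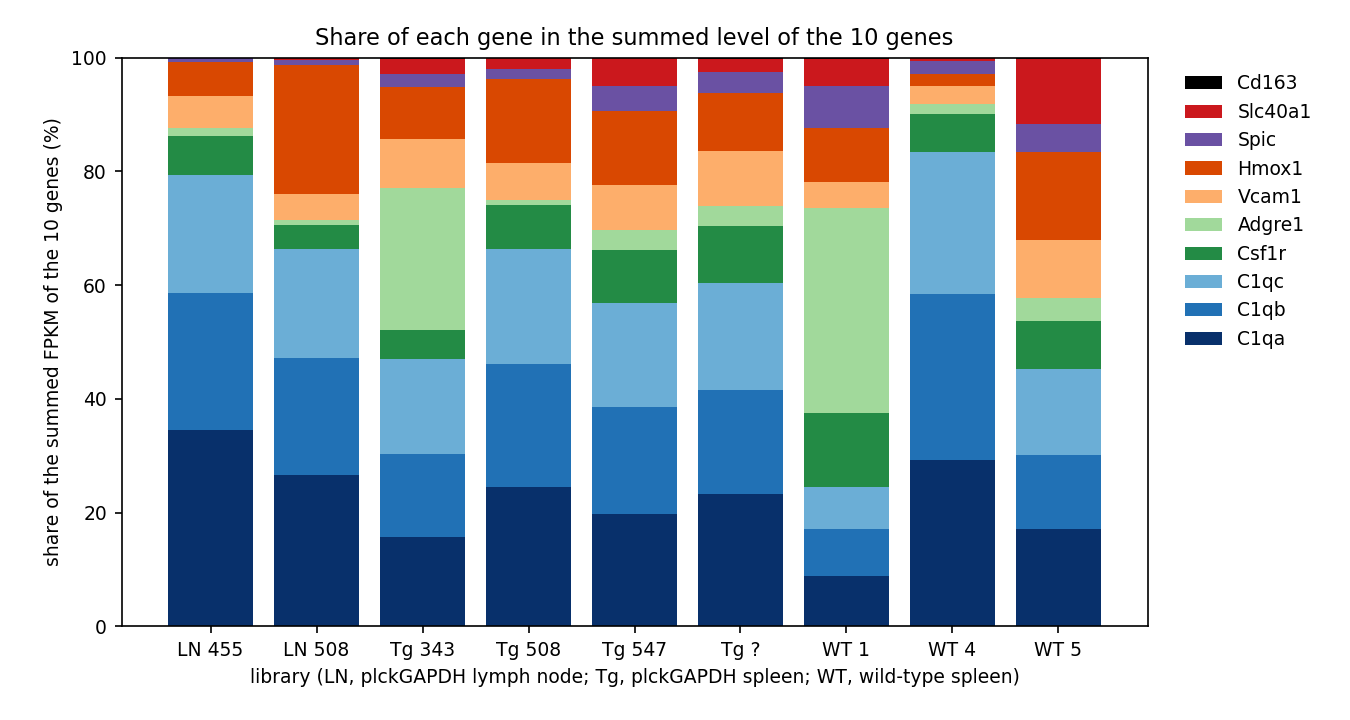
Share of each of the 10 genes in their summed FPKM, in percent, 1 bar per library (LN, plckGAPDH lymph node; Tg, plckGAPDH spleen; WT, wild-type spleen; the question mark is the unnumbered spleen). The C1q genes in blue make up 79.3% and 66.3% of the lymph node bars and between 24.6% and 83.5% of the spleen bars, and Adgre1 takes 25.0% in plckGAPDH spleen 343 and 36.0% in wild-type spleen 1.

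No gene of the set passed the test between plckGAPDH lymph nodes and plckGAPDH spleens. Levels were compared with limma as log2(FPKM + 1), over all 9 libraries in 3 groups, with Benjamini-Hochberg adjustment over the 13682 genes with 1 FPKM in at least 2 libraries. Of the 10 genes 9 passed that filter, and 0 of 9 had a false discovery rate (FDR) or an unadjusted p under 0.05; 2 of all genes tested, or 0.0146%, were called (FDR under 0.05), while for 1546 the p before adjustment was under 0.05. Slc40a1 had the largest log2 fold change of the 9, at -2.23 (SE 1.12, 95% interval -4.69 to 0.23, limma FDR 0.359). Adgre1 had -1.52 (SE 1.17, FDR 0.408) and Spic -1.35 (SE 0.71, FDR 0.359). Single libraries weighed on both: Adgre1 had -0.50 without lymph node 508, -0.60 without spleen 343 and -2.54 without lymph node 455, and Spic had -0.78 without lymph node 508 and -0.88 after median-of-ratios scaling. These folds are on a scale with 1 FPKM added, which understates the difference of a gene as low as Slc40a1.

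Of the 9 tested genes 1, Slc40a1, had lymph nodes that did not overlap the plckGAPDH spleens. In the deposited FPKM 30.0% of all genes tested were lower in this way, and 19.4% lay below all 7 spleens, so 1 gene of 9 is no more than the background. The median log2 fold change of all genes was -0.59 as deposited and -0.01 after median-of-ratios scaling. After that scaling Slc40a1 was at 0.319 and 0.421 in the lymph nodes, against 2.57 to 7.89 over the plckGAPDH spleens and 1.14 to 55.9 over the wild-type ones, and the share of genes below all plckGAPDH spleens was 5.17% and below all 7 spleens 2.95%. Its log2 fold change was then -1.93, with a limma FDR of 0.995.

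For Vcam1, Csf1r, Hmox1 and the 3 C1q genes the interval of the difference reached widely on both sides of 0. The log2 fold change, lymph nodes minus plckGAPDH spleens, was -0.57 for Vcam1, -0.43 for Csf1r and -0.03 for Hmox1, and all 3 turned positive after median-of-ratios scaling, at 0.11, 0.25 and 0.72. All 3 stayed negative when libraries were rescaled without receptor, globin and mitochondrial genes, at -0.72, -0.56 and -0.27. C1qa, C1qb and C1qc had 0.53, 0.26 and 0.09, with limma FDR of 0.705, 0.846 and 0.952, and C1qc turned to -0.15 when libraries were rescaled without receptor, globin and mitochondrial genes. The median of the 9 genes was -0.43, beside -0.59 over all genes. The 2 lymph nodes disagreed: without lymph node 455 all 9 fold changes were negative with a median of -1.84, and without lymph node 508 6 of 9 were positive with a median of 0.69. Their titles differ too (MES for 455, LN for 508), and the part of this in the disagreement was not tested.

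Within animal 508, which gave both tissues, the 9 genes other than Cd163 were lower in the lymph node than in the spleen. The ratio of lymph node to spleen was 0.113 for Slc40a1, 0.294 for Spic, 0.347 for Csf1r and 0.453 for Vcam1. It was 0.597 to 0.688 for the C1q genes, 0.619 for Adgre1 and 0.970 for Hmox1, while Cd163, at about 8 fragments in each library, was too low for a ratio to be read. The median ratio of 9868 genes at 1 FPKM or more in both libraries was 0.699, so Hmox1 stood above it and Slc40a1 and Spic far below. A single animal allows no test.

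No gene of the set passed the test between plckGAPDH spleens and wild-type spleens either. In limma on the 7 spleens, 0 of 9 genes were called and 0 had an unadjusted p under 0.05, against 181 of 12607 genes tested, or 1.44%, called; 1116 of all genes had an unadjusted p under 0.05. The log2 fold change, plckGAPDH minus wild type, was -0.89 for Spic (SE 0.61, 95% interval -2.21 to 0.44, FDR 0.826), -0.81 for Adgre1, -0.58 for Slc40a1, -0.56 for Csf1r, 0.13 for Vcam1 and 0.31 for Hmox1. It was -0.10 for C1qa, -0.12 for C1qb and -0.05 for C1qc, and the limma FDR of the 9 genes ran from 0.826 to 0.997. The groups overlapped for all 9 genes, while they did not for 7.27% of all genes tested. Spic had -0.10 without wild-type spleen 5, and Adgre1 had -1.73 without plckGAPDH spleen 343 and -0.05 without plckGAPDH spleen 508. Single wild-type spleens set the direction: without wild-type spleen 5, 7 of 9 fold changes were positive with a median of 0.68, and without wild-type spleen 1 all 9 were negative with a median of -1.09, beside a median of -0.12 with all 7 spleens. Both comparisons used the same plckGAPDH spleens, so their fold changes are not independent.

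**Figure D3:**
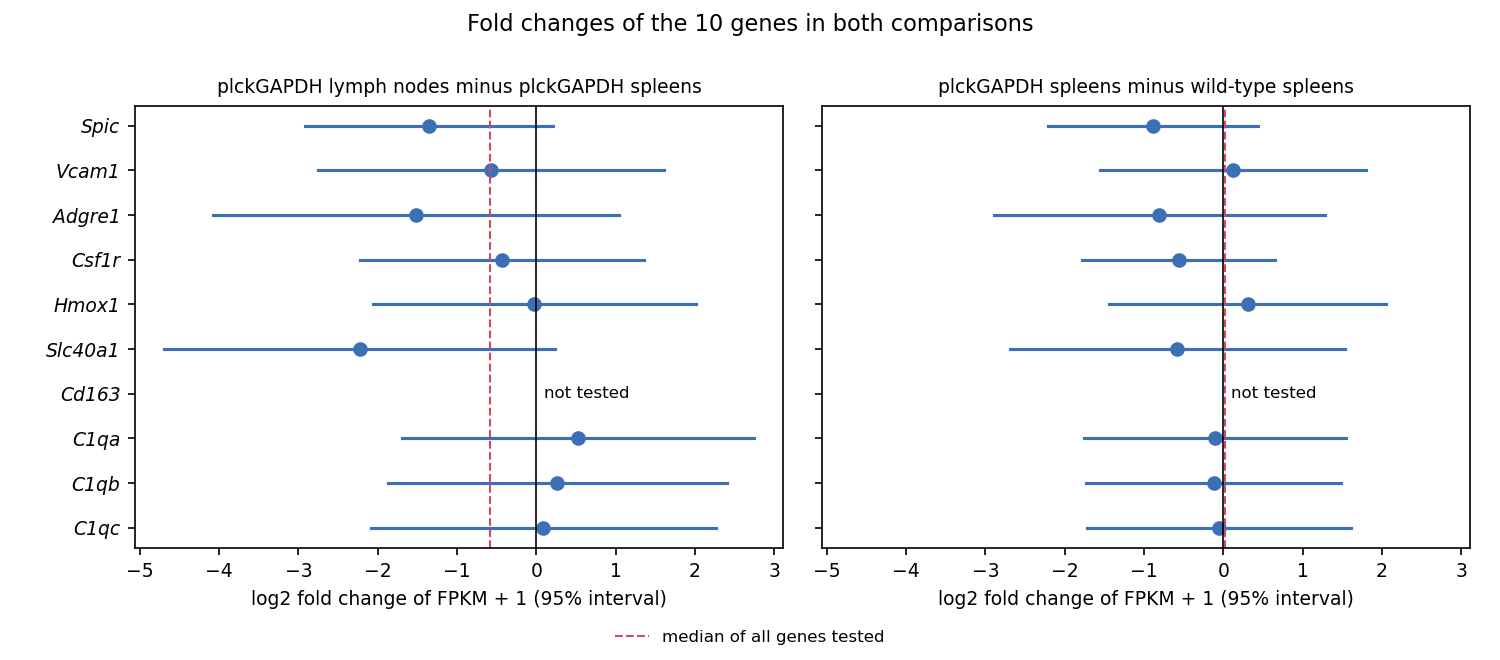
Log2 fold change of FPKM + 1 for each gene with its 95% interval from limma, plckGAPDH lymph nodes minus plckGAPDH spleens on the left and plckGAPDH spleens minus wild-type spleens on the right. The dashed line is the median of all genes tested, -0.59 on the left and 0.02 on the right; every interval includes 0, and Cd163 was not tested. After median-of-ratios scaling Vcam1, Csf1r and Hmox1 lie above 0 on the left, and below 0 when rescaled without receptor, globin and mitochondrial genes.

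Red blood cells are the source of the iron that red pulp macrophages export, and their transcripts varied widely between libraries. The summed level of 11 erythroid genes was 5.26 and 7.11 FPKM in lymph nodes 455 and 508, against 30.4 to 2216 FPKM in plckGAPDH spleens and 2.30 to 74194 FPKM in wild-type spleens. Over the 7 spleens Slc40a1 stood in the same order as Hbb-bs, with wild-type spleen 4 lowest in both and wild-type spleen 5 highest in both. As a description across libraries, which share their scaling, the log2 levels of Slc40a1 and Hbb-bs had Pearson r = 0.98 and Spearman rho = 1 over the 7 spleens, and r = 0.97 and rho = 0.93 over all 9 libraries. Without wild-type spleen 5 and plckGAPDH spleen 547, the libraries farthest from the median of Hbb-bs, r was 0.87 and rho 0.86 (n = 7). Other genes of the set followed Hbb-bs over the 7 spleens too, with r = 0.95 for Hmox1, 0.85 for Vcam1, 0.83 for Spic, 0.81 for Cd163, 0.80 for Csf1r and 0.51 for Adgre1, against 0.34 to 0.43 for the C1q genes. Over all libraries without those 2, r was 0.35 for Hmox1, 0.26 for Vcam1, 0.37 for Spic, 0.50 for Cd163, -0.04 for Csf1r, 0.61 for Adgre1 and -0.41 to -0.31 for the C1q genes. The share of all genes that follow Hbb-bs as closely was not computed, and a cause of the relation was not tested.

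**Figure D4:**
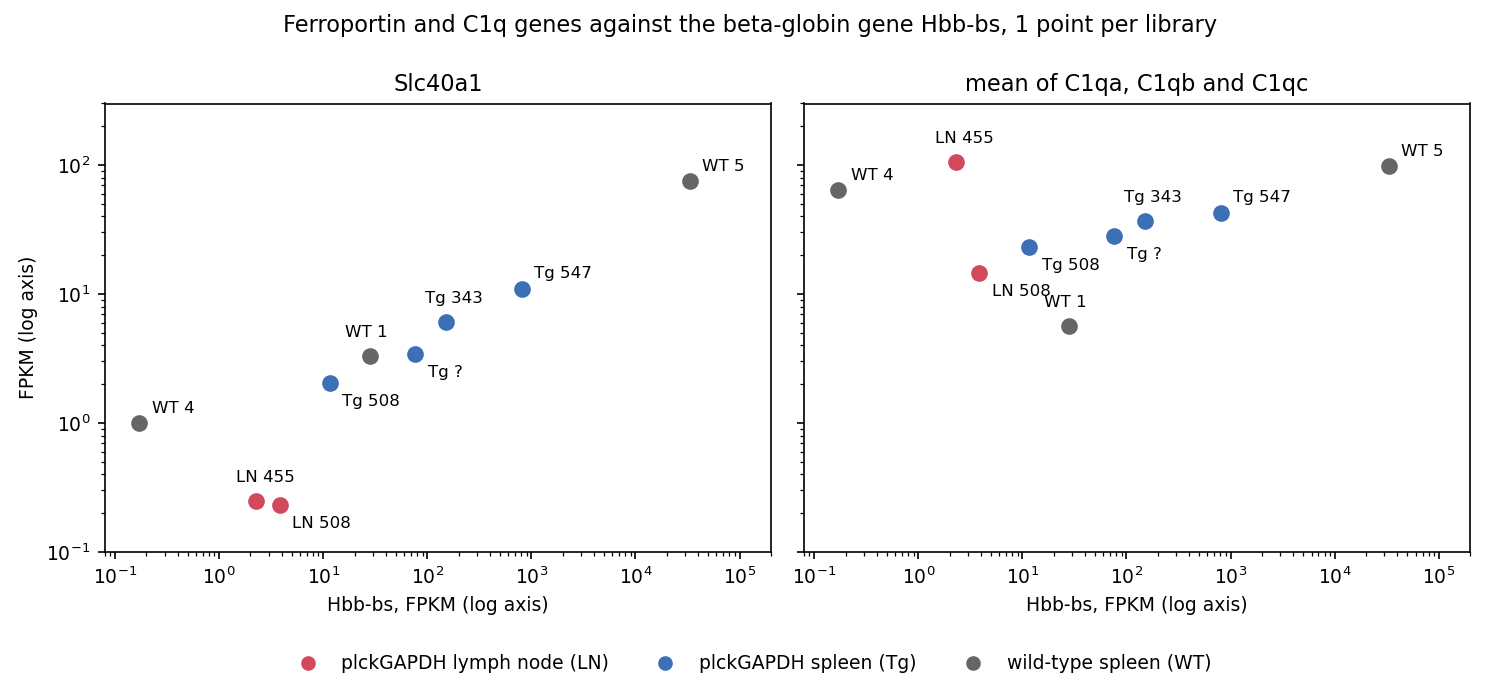
Slc40a1 on the left and the mean of C1qa, C1qb and C1qc on the right, in FPKM, against the beta-globin gene Hbb-bs, in FPKM, both on log axes, 1 point per library (LN, plckGAPDH lymph node; Tg, plckGAPDH spleen; WT, wild-type spleen; the question mark is the unnumbered spleen). Over the 7 spleens Slc40a1 follows the order of Hbb-bs, from 1.0 FPKM in wild-type spleen 4 to 74.68 FPKM in wild-type spleen 5, while the C1q genes in wild-type spleen 4 lie at 63.8 FPKM.

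No further gene of red pulp macrophages or of iron handling was called. Of 15 further red pulp macrophage genes 14 were tested and 0 passed between lymph nodes and plckGAPDH spleens, with 12 negative and a median log2 fold change of -0.34 as deposited, but 9 positive and a median of 0.16 after median-of-ratios scaling. Cd5l, a secreted macrophage protein, was at 3.07 and 0.78 FPKM in the lymph nodes and at 0.60 to 20.42 FPKM in plckGAPDH spleens, and the integrin gene Itgad was at 1.04 and 0.16 FPKM against 0.87 to 4.87 FPKM. Of 19 haem and iron genes 17 were tested and 0 passed, with 14 negative and a median of -0.57 as deposited, but 11 positive and a median of 0.18 after median-of-ratios scaling. When libraries were rescaled without receptor, globin and mitochondrial genes, the red pulp median was -0.42 (12 negative). The haem and iron median was then -0.68 (15 negative). Blvrb, a biliverdin reductase, was at 5.84 and 4.23 FPKM in lymph nodes 455 and 508, against 31.02, 6.31, 93.46 and 74.06 FPKM in the plckGAPDH spleens, with a log2 fold change of -2.59 (limma FDR 0.359). Lrp1, the receptor for haem bound to haemopexin, was at 5.88 and 0.39 FPKM in the lymph nodes and at 0.69 to 10.15 FPKM in the plckGAPDH spleens.

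Neither the other complement genes nor the CSF1 receptor axis held a called gene between lymph nodes and plckGAPDH spleens. Of 16 complement genes 14 were tested, with 8 negative and a median of -0.28, which turned to 0.39 after median-of-ratios scaling; C2, a complement protease, was at 1.01 and 0.16 FPKM in the lymph nodes and at 0.44 to 44.29 FPKM in plckGAPDH spleens. Itgam, a complement receptor chain, was at 4.52 and 0.91 FPKM against 2.39 to 10.18 FPKM. Of 8 genes of the CSF1 receptor axis 7 were tested, with 6 negative and a median of -0.74, or -0.04 after that scaling. The complement and CSF1 receptor medians were -0.38 and -0.98 when libraries were rescaled without receptor, globin and mitochondrial genes. The myeloid and B cell transcription factor Irf8 was at 32.95 and 41.38 FPKM in the lymph nodes. This was below the 45.52 to 166.31 FPKM of plckGAPDH spleens, as were 30.0% of all genes tested as deposited. Wild-type spleen 4, at 32.47 FPKM of Irf8, lay below both lymph nodes. After either rescaling, 0 genes of the CSF1 receptor axis lay lower in both lymph nodes than in all plckGAPDH spleens. Spi1, which encodes PU.1, was at 18.66 and 5.68 FPKM in the lymph nodes against 12.14 to 31.33 FPKM in plckGAPDH spleens.

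Between plckGAPDH spleens and wild-type spleens these lists also held no called gene. Their median log2 fold changes were -0.57 over 14 red pulp macrophage genes, 0.03 over 17 haem and iron genes, 0.10 over 13 complement genes and -0.34 over 7 genes of the CSF1 receptor axis, beside 0.02 over all genes tested. The haem and iron median changed sign after median-of-ratios scaling, to -0.02, and when libraries were rescaled without receptor, globin and mitochondrial genes it was -0.23, with 12 of 17 negative, and the complement median was -0.0084.

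The levels of markers of other cell types differed between these libraries too, and their part in the levels was not tested; fold changes here are lymph nodes minus plckGAPDH spleens. The summed level of 10 neutrophil genes was 44.3 and 56.5 FPKM in the lymph nodes, against 579 to 1354 FPKM in plckGAPDH spleens and 8.66 to 3399 FPKM in wild-type spleens, and 9 of the 10, or 8 after median-of-ratios scaling, lay lower in both lymph nodes than in all plckGAPDH spleens, as did 30.0% of all genes tested as deposited and 5.17% after that scaling; the granule genes Ngp and Camp had log2 fold changes of -4.75 and -4.54. Of 8 erythroid genes tested 7 did so under either scaling, Hba-a2 and Hba-a1 with -5.04 and -4.87. The 8 monocyte genes summed to 149 and 434 FPKM in lymph nodes 508 and 455, against 255 to 586 FPKM in plckGAPDH spleens and 452 to 1162 FPKM in wild-type spleens, and Ly6c2 and Nr4a1 had -1.15 and -1.06. The 6 genes of marginal zone and lymph node macrophages summed to 2.24 and 14.55 FPKM in lymph nodes 508 and 455, against 1.35 to 65.5 FPKM in plckGAPDH spleens and 12.2 to 48.6 FPKM in wild-type spleens. Of these, Cd209b, a lectin of marginal zone macrophages, was at 4.34 FPKM in lymph node 455 and 18.02 FPKM in wild-type spleen 4 and at 0 to 0.84 FPKM elsewhere. Cd36, a scavenger receptor, was at 0.75 and 0.98 FPKM in the lymph nodes, against 1.13 to 58.62 FPKM in plckGAPDH spleens. After median-of-ratios scaling, 0 genes of this list lay lower in both lymph nodes than in all plckGAPDH spleens. The count was also 0 when libraries were rescaled without receptor, globin and mitochondrial genes.

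The 4 genes of lymphatic endothelium, which lines lymphatic vessels, summed to 38.0 and 91.3 FPKM in lymph nodes 455 and 508, against 0.80 to 174 FPKM in plckGAPDH spleens and 1.73 to 3.51 FPKM in wild-type spleens. The chemokine gene Ccl21a, which the list of endothelium and stroma also holds, was at 9.53 and 0.69 FPKM in lymph nodes 455 and 508. It was at 0 to 0.08 FPKM in plckGAPDH spleens and at 0.49, 2.32 and 1.54 FPKM in wild-type spleens 1, 4 and 5. Wild-type spleens 4 and 5 thus lay above lymph node 508. Reln was at 28.37 and 90.55 FPKM in the lymph nodes against 0.73 to 173.74 FPKM in plckGAPDH spleens. Reln and Ccl21a made up nearly all of the lymph node sums, and Reln nearly all of the highest spleen sum. They were the 2 tested genes of the 4, so the sums say little of the rest of this list. The 17 genes of endothelium and stroma, which can also carry Vcam1, summed to 11.7 and 42.4 FPKM in lymph nodes 508 and 455, against 13.3 to 49.4 FPKM in plckGAPDH spleens and 24.8 to 78.7 FPKM in wild-type spleens, with a log2 fold change of -1.14 for Pecam1. The 8 dendritic cell genes summed to 10.6 to 17.7 FPKM in the lymph nodes, against 12.5 to 49.7 FPKM in plckGAPDH spleens and 28.6 to 106 FPKM in wild-type spleens, and Ccr7 and Siglech had -1.84 and -0.81. The lymphocyte lists ran between 374 and 460 FPKM (8 B cell genes) and between 130 and 278 FPKM (10 T cell genes) in the lymph nodes, against 592 to 1186 FPKM and 154 to 1177 FPKM in plckGAPDH spleens and 417 to 1804 FPKM and 448 to 741 FPKM in wild-type spleens, with -1.65 for Pax5, -1.58 for Blk, -1.61 for Cd8a and -1.39 for Cd5. The 7 plasma cell genes summed to 2371 and 2613 FPKM in the lymph nodes, against 80.1 to 4481 FPKM in plckGAPDH spleens and 227 to 348 FPKM in wild-type spleens, with 4.62 for Jchain and 2.2 for Mzb1. Over all lists, limma called 0 of 126 genes tested between lymph nodes and plckGAPDH spleens and 0 of 116 between the genotypes, while 16 and 12 of them had an unadjusted p under 0.05, as did 11.3% and 8.85% of all genes tested; of the 16, 7 were neutrophil genes. After median-of-ratios scaling the medians drew closer to 0, at -0.04 for monocytes, -0.15 for dendritic cells, -0.34 for B cells and -0.16 for T cells, beside -0.75, -0.48, -1.10 and -0.90 as deposited, and that of endothelium and stroma turned to 0.02 from -0.26. The B cell genes below all plckGAPDH spleens were then 0, beside 5 as deposited, and the T cell genes 0, beside 2. The medians did not draw closer to 0 when libraries were rescaled without receptor, globin and mitochondrial genes. They were -0.96 for monocytes, -0.56 for dendritic cells, -1.37 for B cells, -1.14 for T cells and -0.26 for endothelium and stroma.

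Likeness to the set was measured as the Pearson correlation, over the 9 libraries, of log2(FPKM + 1) with the mean standardised level of the 10 genes, among 7709 other genes with a mean of at least 5 FPKM. The 8 most alike were Il18 (r = 0.95), Clec4n (0.93), Fcna (0.92), Sdc3 (0.91), Axl (0.90), Slc11a1 (0.90), Cd68 (0.90) and Gna12 (0.89). Without wild-type spleen 5 these values were 0.88, 0.82, 0.78, 0.87, 0.88, 0.78, 0.92 and 0.84 in the same order. Cd68, which encodes a lysosomal protein of macrophages, ran from 3.68 to 43.3 FPKM, and Axl, a receptor for apoptotic cells, from 1.37 to 34.6 FPKM.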

How the data were processed

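Total RNA libraries of 9 samples were made with a stranded kit and sequenced as paired reads, per the labels' protocols. The deposited values are FPKM per gene with 2 decimals. The submitters' processing notes list Bowtie2 2.2.6, RSEM, STAR 2.4.0a, Subread 1.5.0-p3 and featureCounts, and the build mm10. The tool behind the FPKM and the gene annotation are not stated in those notes. FPKM are relative to the fragments of the library, so a gene that takes many fragments lowers the others. No column bears the name of 1 of the plckGAPDH spleen titles, and 1 column names its group but no animal.

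Depth was estimated from genes with 1 annotated transcript, whose low FPKM fall on whole multiples of 1 fragment: 80.2% to 85.3% of values were within 0.03 fragments of a whole number or the rounding of the table, against 21.1% to 23.3% by chance. Fragments per gene are approximate, since they use GENCODE exon lengths. No pair of libraries (36 pairs) shared more than 0.257% identical values. Mitochondrial ribosomal RNA took 13.2% to 36.9% of the estimated fragments.

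log2(FPKM + 1) was fitted with limma 3.58.1 in R 4.3.3 with an intensity trend, two-sided, and genes with a Benjamini-Hochberg FDR under 0.05 were called. Lymph nodes and plckGAPDH spleens were compared in a fit of all 9 samples in 3 groups (genes with 1 FPKM in 2 samples), and the spleens of both genotypes in a fit of the 7 spleens (1 FPKM in 3). No covariate was used. In simulated data the lymph node fit recovered 0.5%, 74% and 92.5% of genes changed by 2, 3 and 4 on the log2 scale (13157 to 13170 genes), and the spleen fit 28.5%, 84% and 95.5% (12243 to 12254 genes). False calls made up 66.7%, 3.27% and 7.5% of the genes called in the lymph node fit, and 3.39%, 3.45% and 3.05% in the spleen fit. The simulation put its changes into genes at higher levels alone, so recovery was not measured for genes as low as Slc40a1 and may not hold there. The rates were not split further by level. Alternatives were another pseudocount, no filter, 2 other scalings, sample quality weights, no trend, other sets of samples and leaving out each sample.

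The 10 genes and all lists were chosen with earlier results of these data known, and the ratios to C1q and the relation to Hbb-bs were chosen after the values were seen. From each other list the 2 tested genes with the largest absolute log2 fold change between lymph nodes and plckGAPDH spleens are named; Cd209b and Ccl21a are described beyond that as markers at or near 0. Promoters are from RefSeq (GRCm38.p6) and were searched by exact match. Python 3.11.15 with pandas 2.3.3, numpy 2.4.6, scipy 1.17.1 and matplotlib 3.10.9 was used.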

Additional observations from a re-analysis of the deposited data

Results flagged for a closer look

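In the 4 plckGAPDH spleens, 37 genes were examined for a library far from the other 3 (Dixon's criterion at 4 samples), and 8 were found. Chance gives about 1 in 20 for independent values that are normally distributed. These were unlogged FPKM from shared libraries, and many of the genes were picked by fold changes that involve these spleens. The 8 were therefore not shown to exceed chance. Adgre1 was at 58.72 FPKM in spleen 343, against 0.84 to 8.09 FPKM in the other plckGAPDH spleens. Spleen 547 stood apart for C2 at 44.29 FPKM, Cd36 at 58.62 FPKM and Ccl21a at 0.08 FPKM, the last being 0 in the other 3, so that any value above 0 would have met the criterion. Spleen 508 stood apart for Jchain at 3472.35 FPKM, Reln at 173.74 FPKM, Lrp1 at 0.69 FPKM and Siglech at 0.15 FPKM.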

How the results depend on the processing

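None of the 9 tested genes was called under any alternative run, nor Cd163 where no filter was applied. Their limma FDR ran from 0.0776 to 1 between lymph nodes and plckGAPDH spleens and from 0.0510 to 1.0 between the spleens of both genotypes, lowest with sample quality weights, whose estimation did not converge. In the tissue comparison the sign turned with median-of-ratios scaling for Csf1r (0.25), Hmox1 (0.72) and Vcam1 (0.11), with quality weights (0.15) and all 7 spleens as 1 group (0.11) for Hmox1, and for C1qc without receptor, globin and mitochondrial genes (-0.15). In the genotype comparison it turned with quality weights for C1qa (2.17), C1qb (2.00), C1qc (2.17), Csf1r (0.49) and Slc40a1 (0.23), and for Vcam1 without receptor, globin and mitochondrial genes (-0.069). Leaving out 1 library gave, between lymph nodes and plckGAPDH spleens, -0.93 to 1.98 for C1qa, -1.11 to 1.64 for C1qb, -1.22 to 1.39 for C1qc, -1.89 to 1.04 for Csf1r, -0.35 to 0.30 for Hmox1, -1.84 to 0.69 for Vcam1, -2.54 to -0.50 for Adgre1 and -1.93 to -0.78 for Spic. Between the genotypes it gave -1.31 to 0.68 for C1qa, -1.29 to 0.54 for C1qb, -1.26 to 0.74 for C1qc, -1.09 to 0.15 for Csf1r, -0.46 to 1.62 for Hmox1, -1.64 to 0.98 for Slc40a1, -0.71 to 1.30 for Vcam1, -1.73 to -0.05 for Adgre1 and -1.31 to -0.10 for Spic. Between lymph nodes and plckGAPDH spleens Slc40a1 had -2.54 to -1.88 with 1 library left out. Of all genes, 2 were called between lymph nodes and plckGAPDH spleens, against 5 with a pseudocount of 0.1, 5 with no filter, 1 with median-of-ratios scaling, 7 with quality weights, 8 without wild-type spleens and 0 to 28 with 1 library left out (0 without lymph node 455, 28 without lymph node 508, 24 without spleen 508). Between the genotypes 181 were called, against 74 with no filter, 1863 with quality weights and 72 to 265 with 1 library left out. The cause of these changes was not tested. A lone lymph node is assumed to vary like the other groups. No paired analysis was possible because animal 508 alone gave both tissues.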
